A study of Mus musculus with 6 samples.

Results

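The SR proteins are splicing factors that join an RNA recognition motif to a tail of alternating arginine and serine residues. The family described here was taken as the rows of the deposited raw count table named Srsf1, Srsf2, Srsf3, Srsf4, Srsf5, Srsf6, Srsf7, Srsf9, Srsf10 and Srsf11. These are 10 of 26027 genes in the table, and all 10 were found and passed the filter on low counts. Libraries of total RNA came from marrow cells of C57BL/6 mice sorted as Lin-/cKit+/eYFP+, a population labelled as immature multipotent blood progenitors. The mutant group was 3 libraries of genotype hScl-CreERT R26eYFP Srsf2 P95H/+, written P95H/+ below, and the control was 3 libraries of hScl-CreERT R26eYFP Srsf2 +/+, written wild type. Both groups carried the tamoxifen-inducible Cre named for Scl, a gene of stem and progenitor cells, and the R26eYFP reporter, and both were given tamoxifen. Only reporter-positive cells were sorted, so the controls are recombined, Cre-bearing cells as well. P95H/+ replicates 1 and 2 were female and replicate 3 male, all of 32 weeks. Wild-type replicate 1 was a female of 54 weeks, and wild-type replicates 2 and 3 were males of 32 weeks. The labels do not say whether each library is a separate mouse, so p-values measure the spread between these libraries.

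SR proteins bind short motifs in exons and help the spliceosome to choose nearby splice sites, and several also carry spliced mRNA out of the nucleus. Kinases of the Srpk and Clk families phosphorylate their tails and so move them between speckles, nucleoplasm and cytoplasm. Many SR genes hold a poison exon or a retained intron whose inclusion sends the transcript to nonsense-mediated decay, by which SR proteins limit their own levels. Srsf2 is mutated at its proline 95 in myelodysplastic and chronic myelomonocytic disease, and the mutant protein shifts its preference among exonic motifs.

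The Srsf2 coding sequence around codon 95 is shown because that codon is the one changed in the P95H allele. The line gives bases 253 to 315 of the coding sequence of transcript Srsf2-201, from chr11:116852615-116852677 on the minus strand of mm10, with codon 95, a proline codon, in capitals (GENCODE M21).
Srsf2 codon 95: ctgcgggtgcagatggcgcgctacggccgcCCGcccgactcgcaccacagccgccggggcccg
This stretch is 81.0% G and C. The counts are sums over the whole gene and do not separate the P95H allele from the wild-type allele.

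The family is uneven in base composition. The first 90 coding bases of 3 members are shown 5′ to 3′, with every G and C in capitals, for the mutated gene Srsf2 and for the members whose whole transcripts have the lowest and the highest GC content, Srsf3 and Srsf4. They lie at chr11:116852840-116852929 on the minus strand for Srsf2, and on the plus strand at chr17:29036243-29036332 for Srsf3 and chr4:131873764-131873853 for Srsf4 (mm10, GENCODE M21).
Srsf2: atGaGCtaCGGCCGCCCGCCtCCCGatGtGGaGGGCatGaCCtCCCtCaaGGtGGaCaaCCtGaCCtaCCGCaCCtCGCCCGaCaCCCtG
Srsf3: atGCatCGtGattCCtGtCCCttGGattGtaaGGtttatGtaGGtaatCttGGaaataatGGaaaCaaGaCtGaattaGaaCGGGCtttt
Srsf4: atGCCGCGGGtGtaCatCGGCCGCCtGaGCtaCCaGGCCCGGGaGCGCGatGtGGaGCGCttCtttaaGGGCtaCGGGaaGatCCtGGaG
G and C made up 66.7% of the bases shown for Srsf2, 37.8% for Srsf3 and 64.4% for Srsf4. The same stretch held 64.4% in Srsf11, 61.1% in Srsf1 and 72.2% in Srsf9. In P95H/+ replicate 3 these 3 genes lay below the mean of replicates 1 and 2 by log2 differences of -1.23, -1.40 and -0.76. Srsf2 and Srsf4 had -0.11 and -0.10, so Srsf4 and Srsf11 differed in this value at the same 64.4%. Srsf3 and Srsf5, the members with the lowest shares in this stretch at 37.8% and 48.9%, had -1.47 and -1.35. Whether this stretch sorts all 10 members by that difference was not tested. Over the longest protein-coding transcript, untranslated parts included, GC content ran from 39.99% for Srsf3 to 56.85% for Srsf4, with Srsf2 at 49.97%. The median of all protein-coding genes in the table was 50.4%, and 7 of the 10 members lay at 45.04% or below: Srsf3, Srsf1, Srsf10, Srsf7, Srsf6, Srsf5 and Srsf11.

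The members are spread over 7 chromosomes of mm10 and all are protein coding. Srsf2 lies at chr11:116849901-116853094 on the minus strand and Srsf1 on the same chromosome at chr11:88047373-88053755 on the plus strand. Srsf3 is at chr17:29032628-29043373 (plus) and Srsf7 at chr17:80200080-80207307 (minus), and Srsf4 at chr4:131873617-131901706 and Srsf10 at chr4:135855747-135869908 (both plus). Srsf5 is at chr12:80945504-80950507, Srsf6 at chr2:162931528-162937121 and Srsf9 at chr5:115327177-115333080, all plus, and Srsf11 at chr3:158010473-158036639 (minus).

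Unproductive transcripts are annotated for most of the family. GENCODE M21 lists at least 1 transcript of the nonsense-mediated decay class for 9 of the 10 members, all but Srsf10, and a retained-intron transcript for 8, all but Srsf9 and Srsf10. Among 16188 protein-coding genes in the table, 25.7% have an annotated transcript of the decay class and 52.5% one with a retained intron. Srsf11 has the most, with 3 and 11 such transcripts among 19. Reads of productive and unproductive transcripts enter the same gene count, and splicing itself cannot be read from it.

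Library totals ran from 10747941 counts in P95H/+ replicate 3 to 23010510 in wild-type replicate 1, and the smallest count of any member in any library was 457. Kit, the receptor used for sorting, stood at 476 to 548 CPM (counts scaled so that every library sums to the same total) in P95H/+, against 482 to 532 CPM in wild type. In each genotype, replicate 3 departed from replicates 1 and 2, and the labels name no batch that would separate them. Genes with a GC content of 40% or less lay below the mean of the other 4 libraries by a median log2 difference of -1.25 for P95H/+ replicate 3, against -0.84 for that of wild type, and genes above 55% lay above it by 0.65 and 0.52. Genotype results for the SR genes are therefore given with and without the replicate 3 libraries.

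Srsf2 was at nearly the same level in every library. It stood at 342, 336 and 315 CPM in P95H/+ replicates 1, 2 and 3, against 324, 331 and 343 CPM in wild type. The groups overlapped, and the coefficient of variation was 4.28% in P95H/+ and 2.94% in wild type. Its log2 fold change was 0.07 (SE 0.17), or -0.0061 with total counts alone as scaling, and the 95% interval allowed a fold between 0.798 and 1.38. With replicate 3 of both genotypes left out, the log2 fold change was 0.08 (SE 0.08) and the interval narrowed to a fold between 0.938 and 1.2. The edgeR quasi-likelihood test gave an adjusted p of 1 with 6 libraries and 0.659 with 4. Srsf2 shares 460 exonic bases with Mettl23 and 288 with Mfsd11 on the other strand, 15.6% and 9.7% of its exon length, and whether counting used the strand is not given in the sources used here. These neighbours were counted far lower, Mettl23 at 21.03 to 33.2 CPM in P95H/+ against 29.3 to 37.6 CPM in wild type, and Mfsd11 at 16.7 to 25.4 CPM in P95H/+ against 17.0 to 31.3 CPM in wild type.

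Srsf3 and Srsf7, which like Srsf2 have a single RNA recognition motif and also serve as adaptors for mRNA export, were at one level in 4 libraries and lower in replicate 3. Srsf3, the shortest protein of the family, stood at 472, 458 and 167 CPM in P95H/+ replicates 1, 2 and 3, against 486, 490.1 and 267 CPM in wild type. Both genotypes were lowest in replicate 3, where P95H/+ lay under wild type, and the groups overlapped. Srsf7, whose protein also has a zinc knuckle, stood at 315, 315 and 117 CPM in P95H/+, against 302, 318 and 250.3 CPM in wild type. The fall in replicate 3 was steeper in P95H/+ than in wild type for this gene, a log2 difference of -1.43 against -0.31 from the mean of the other replicates. Their log2 fold changes were -0.12 (SE 0.42) for Srsf3 and -0.16 (SE 0.36) for Srsf7. Without the replicate 3 libraries they were -0.04 (SE 0.08) and 0.05 (SE 0.08).

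Srsf1 and Srsf9 have a pair of RNA recognition motifs and are the closest relatives within the family. Srsf1, which promotes use of nearby 5′ splice sites and acts as an oncogene when overexpressed, stood at 723, 697 and 269 CPM in P95H/+ replicates 1, 2 and 3, against 596, 608 and 441 CPM in wild type. In replicates 1 and 2 both P95H/+ libraries lay above both wild-type libraries, and in replicate 3 the order was turned. Over all 6 libraries its log2 fold change was 0.10 (SE 0.37; adjusted p of 1 in edgeR's test). Without the replicate 3 libraries it was 0.27 (SE 0.09), a fold of 1.21 with a 95% interval of 1.05 to 1.38. This had the smallest p among the members, 0.0116 before adjustment, and an adjusted p of 0.191 in edgeR's quasi-likelihood test, so it did not pass. Among replicates 1 and 2, no wild-type library matched the P95H/+ libraries in both age and sex. Within replicate 3 alone, the log2 difference of P95H/+ from wild type was -0.71, from 1 library each. Srsf9 stood at 75.7, 69.0 and 42.5 CPM in P95H/+, against 65.2, 71.1 and 68.1 CPM in wild type. Its P95H/+ replicate 3 library alone was low, with a 95% counting interval of 38.7 to 46.6 CPM from 457 counts.

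Srsf4, Srsf5 and Srsf6 form a subgroup with paired motifs and long arginine- and serine-rich tails. Srsf4 stood at 45.2, 48.3 and 43.5 CPM in P95H/+ replicates 1, 2 and 3, against 46.7, 48.8 and 31.6 CPM in wild type. It was the only member whose replicate 3 library was higher in P95H/+ than in wild type, by a log2 difference of 0.46. A noncoding gene on the other strand, Gm12992, covers 43.0% of its exon length, but was counted at 2.26 to 3.07 CPM in P95H/+, against 2.22 to 2.94 CPM in wild type. Srsf5 stood at 500.4, 493 and 194 CPM in P95H/+, against 528, 485 and 265 CPM in wild type. Srsf6 stood at 455, 438 and 319 CPM in P95H/+, against 462, 471 and 398 CPM in wild type. In replicates 1 and 2 both P95H/+ libraries of Srsf6 lay below both of wild type, with a log2 fold change of -0.03 (SE 0.08) in the 4-library fit.

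Srsf10, which represses splicing when it is dephosphorylated in mitosis or heat shock, and Srsf11, an SR-related protein, are the least canonical members. Srsf10 stood at 277, 269.9 and 90.5 CPM in P95H/+ replicates 1, 2 and 3, against 272, 250.1 and 135 CPM in wild type. Srsf11 stood at 313, 309.7 and 133 CPM in P95H/+, against 307, 309.6 and 184 CPM in wild type. For both genes the 4 libraries of replicates 1 and 2 lay close together, and the replicate 3 libraries were far lower in both genotypes. Their log2 fold changes were 0.02 (SE 0.45) and -0.02 (SE 0.37), and 0.10 (SE 0.08) and 0.05 (SE 0.08) without replicate 3.

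**Figure D1:**
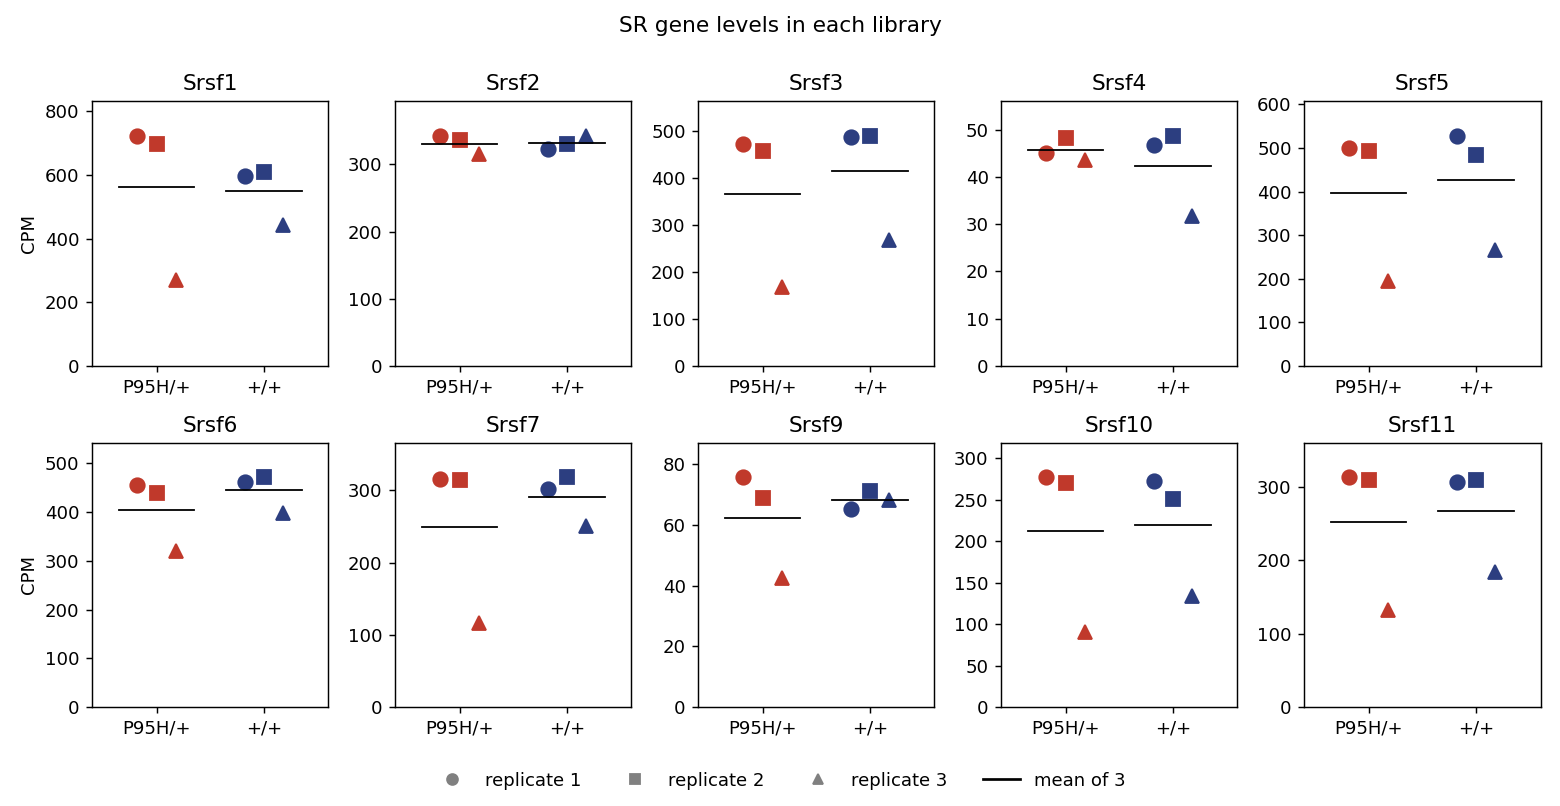
CPM of each SR gene in each library, with P95H/+ at the left and wild type (+/+) at the right, a symbol for each replicate number and a line at the mean of 3. Srsf2 lies between 315 and 343 CPM in all 6 libraries, while the replicate 3 triangles of Srsf3, Srsf5, Srsf10 and Srsf11 lie below the other symbols in both genotypes.

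No member differed between the genotypes beyond the spread of the libraries. Of the 10 members, 0 passed an adjusted p of 0.05 in edgeR's quasi-likelihood F test over 17144 genes, where 0% of all genes passed, and 0 of 10 had an unadjusted p under 0.05, against 2.11% of all genes. DESeq2 called 0 members and 0.0269% of all genes. The groups did not overlap for 0 of the 10 members, against 7.84% of all genes tested. Log2 fold changes of P95H/+ over wild type lay between -0.16 for Srsf7 and 0.18 for Srsf4, with 4 positive and 6 negative and a median of -0.03. Over all genes 53.1% were positive and the median was 0.02. With total counts alone as scaling, 2 of 10 members were positive, against 40.4% of all genes. In all 3 replicate numbers the P95H/+ library lay below the wild-type library for 2 of 10 members, Srsf3 and Srsf6, against 19.3% of all genes. The intervals were wide where replicate 3 departed: that of Srsf10 ran from -1.04 to 1.07 on the log2 scale. A missed threshold in such an interval does not show that the genotypes are alike.

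Leaving out replicate 3 of both genotypes narrowed every member's interval, and still 0 of 10 members passed an adjusted p of 0.05, while 0.829% of 17371 genes did. In this comparison of 2 with 2 libraries, 1 of 10 members, Srsf1, had an unadjusted p under 0.05, against 15.6% of all genes. Both P95H/+ libraries here were females of 32 weeks, against a wild-type female of 54 weeks and a wild-type male of 32 weeks. Genotype was thus not separated from age and sex in this comparison. The P95H/+ libraries lay above both wild-type libraries for 3 members, Srsf1, Srsf2 and Srsf11, where 19.9% of all genes did so, and below both for 2 members, Srsf3 and Srsf6, where 28.2% did so. Log2 fold changes were positive for 7 of 10 members, with a median of 0.05, against 49.6% of all genes and a median of -0.00. For 9 members, all but Srsf1, the 95% interval held 0, and the widest reach among these 9 was that of Srsf9, from -0.10 to 0.33. Scaling by total counts alone, a choice made after the data were seen, gave Srsf1 0.24 (SE 0.07) with an adjusted p of 0.187, and moved Srsf5 from just above 0 to -0.03.

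**Figure D2:**
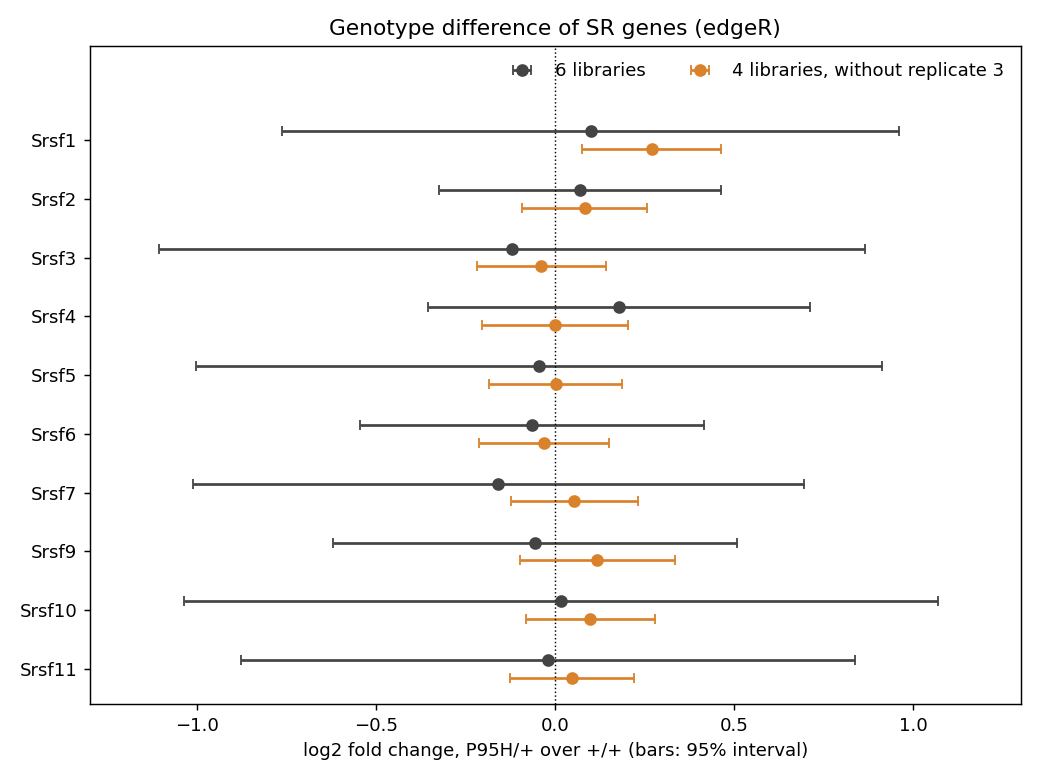
Log2 fold change of each SR gene, P95H/+ over wild type, from edgeR with all 6 libraries (grey) and with the 4 libraries of replicates 1 and 2 (orange), with 95% intervals. The grey intervals all span 0, and without replicate 3 the interval of Srsf1, from 0.07 to 0.46, is the one that does not. Among the 4 libraries, no wild-type library matches those of P95H/+ in both age and sex.

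Sex and replicate 3 could not be told apart in P95H/+, because its only male library is replicate 3. Srsf1 was higher in both female P95H/+ libraries than in the 1 female wild-type library, and lower in the male P95H/+ library than in both male wild-type libraries. The interaction of genotype with sex, male minus female, was -1.16 on the log2 scale for Srsf1, -1.29 for Srsf7 and -0.11 for Srsf2. The male P95H/+ arm and the female wild-type arm hold 1 library each, so the test takes each single library to vary like the others. In edgeR's quasi-likelihood test 0 of 10 members passed an adjusted p of 0.05, against 0.00583% of all genes, and 2 of 10, Srsf1 and Srsf7, had an unadjusted p under 0.05, against 7.37%. Wild-type replicate 1 is also the only older mouse, so that age was not separated from the other differences of that library.

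Most of the family was lower in the replicate 3 libraries, while Srsf2 was within 0.11 of the other replicates on the log2 scale in both genotypes. Against the mean of replicates 1 and 2 of the same genotype, all 10 members were lower in P95H/+ replicate 3, where 54.5% of all tested genes were lower, and 8 of 10 in wild-type replicate 3, where 50.9% were. In P95H/+ replicate 3, 6 of 10 members had a log2 difference of -1 or lower, against 16.6% of all genes. They were Srsf10 at -1.59, Srsf3 at -1.47, Srsf7 at -1.43, Srsf1 at -1.40, Srsf5 at -1.35 and Srsf11 at -1.23. Srsf9, Srsf6, Srsf2 and Srsf4 followed at -0.76, -0.48, -0.11 and -0.10. In wild-type replicate 3, 5 of 10 members had a log2 difference of -0.5 or lower, against 25.9% of all genes. These were Srsf10 at -0.96, Srsf5 at -0.93, Srsf3 at -0.87, Srsf11 at -0.74 and Srsf4 at -0.59, while Srsf1, Srsf7 and Srsf6 stood at -0.45, -0.31 and -0.23, Srsf9 at 0.0007 and Srsf2 at 0.07. The members' order thus differed between the replicate 3 libraries, with Srsf1 and Srsf7 among the most reduced in that of P95H/+ and near the middle in that of wild type. No test bears on these values, since each comes from 1 library.

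GC content went with part of this order. Across the 10 members, GC content and the log2 difference of replicate 3 correlated at Pearson r = 0.74 (Spearman 0.84) in P95H/+ and 0.45 (0.42) in wild type. Across the 17078 tested genes with a GC content the values were 0.62 (0.68) and 0.57 (0.61). These are correlations across genes of shared libraries, given as descriptions. Among 3288 genes with a GC content of 40% to 45%, the median log2 difference was -0.76 in P95H/+ replicate 3, with quartiles at -1.16 and -0.37, and Srsf1, Srsf5, Srsf7 and Srsf10 all lay below the lower quartile. In wild-type replicate 3 that range had a median of -0.53 and quartiles of -0.95 and -0.16, and of its 5 members only Srsf10 lay under the lower quartile. Srsf4 and Srsf9, above 55% GC, went against the trend: genes of that range had medians of 0.70 and 0.47 in P95H/+ and wild-type replicate 3, while Srsf4 and Srsf9 had -0.10 and -0.76 in P95H/+, against -0.59 and 0.0007 in wild type. With library trends on GC content removed, log2 fold changes of the members lay between -0.20 for Srsf7 and 0.14 for Srsf4, and 0 passed.

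**Figure D3:**
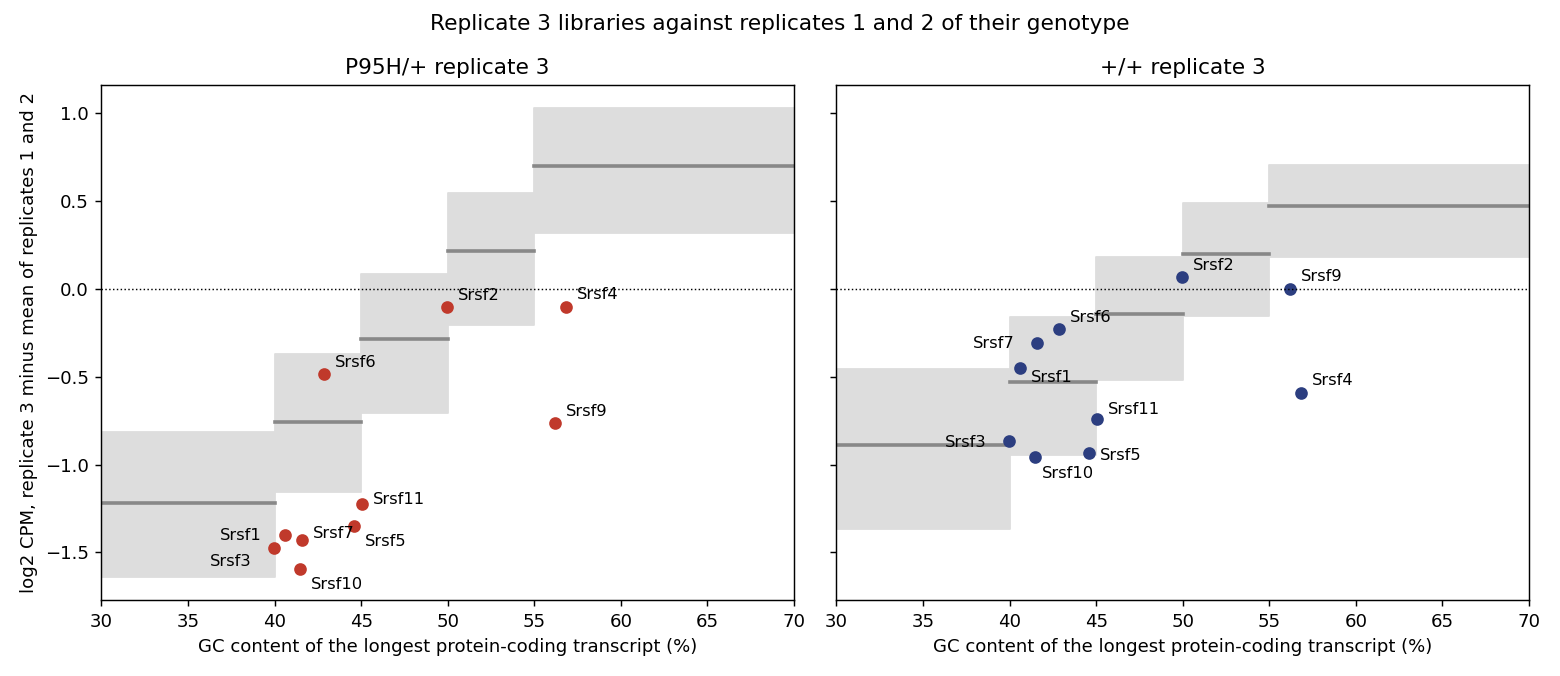
Log2 difference of replicate 3 from the mean of replicates 1 and 2, for P95H/+ (left) and wild type (right), against GC content of each SR gene's longest protein-coding transcript. Grey bars give the median and quartiles of all tested genes in 5 GC ranges, of which the outer ones are drawn only to 30% and 70%. In P95H/+ replicate 3 the points of Srsf1, Srsf4, Srsf5, Srsf7, Srsf9, Srsf10 and Srsf11 lie under the grey quartile box of their range, and Srsf2 lies inside its box in both libraries.

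The make-up of the family's counts was different in replicate 3. Srsf2 contributed 9.72% and 9.78% of the summed counts of the 10 genes in P95H/+ replicates 1 and 2 and 18.6% in replicate 3, against 9.55%, 9.77% and 14.4% in wild type. Srsf1 was the largest contributor in 5 libraries, with 20.6% and 20.3% in P95H/+ replicates 1 and 2, against 17.6%, 17.98% and 18.5% in wild type. In P95H/+ replicate 3 alone it was not, and gave 15.9%, under Srsf6 at 18.9% and Srsf2. The 10 genes together made up 3519, 3434 and 1692 CPM in P95H/+ replicates 1, 2 and 3, against 3389, 3382 and 2383 CPM in wild type. The mean was 2882 ± 1031 CPM in P95H/+, against 3052 ± 579 CPM in wild type, each with its SD over 3 libraries. The ratio was 0.944, which lay within the spread, and 1.03 without the replicate 3 libraries. In bulk RNA, fewer cells of a type and less RNA per cell cannot be told apart.

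**Figure D4:**
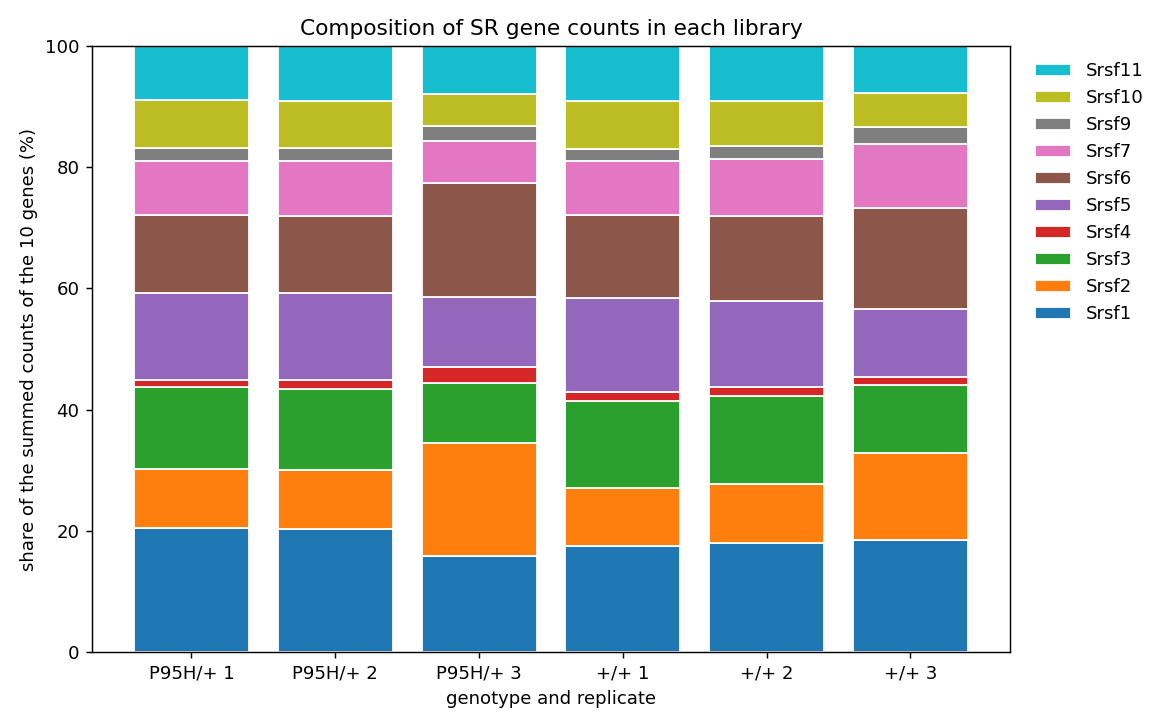
Share of each SR gene in the summed counts of the 10 genes, per library, with the 3 P95H/+ libraries to the left of the 3 wild-type (+/+) libraries. The orange Srsf2 segment is 9.55% to 9.78% high in replicates 1 and 2 of both genotypes and 18.6% and 14.4% in P95H/+ and wild-type replicate 3.

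Levels were compared between members per kilobase of annotated exon. Srsf2 stood first, at 112 ± 4.79 CPM per kb in P95H/+ and 112 ± 3.31 CPM per kb in wild type (SD, n = 3 each). Srsf5 followed at 99.2 ± 43.7 in P95H/+ and 107 ± 35.4 in wild type, then Srsf1 at 98.6 ± 44.6 and 96.1 ± 16.3, and Srsf6 at 84.0 ± 15.4 and 92.2 ± 8.23 CPM per kb. Srsf7 came next, at 70.1 ± 32.2 in P95H/+ and 81.7 ± 9.99 in wild type. Over the 6 libraries each of these 5 overlapped the next in the order, but the lowest Srsf2 library, at 107, lay above the highest of Srsf6, at 97.9, and of Srsf7, at 89.7 CPM per kb. Srsf3 stood at 46.3 ± 21.8 in P95H/+ and 52.5 ± 16.1 in wild type and Srsf9 at 37.8 ± 10.62 and 41.2 ± 1.78 CPM per kb, and these also overlapped. Srsf10, at 30.3 ± 15.1 in P95H/+ and 31.3 ± 10.56 in wild type, and Srsf11, at 29.8 ± 12.2 and 31.6 ± 8.48 CPM per kb, changed places between the genotypes by less than their spread. Srsf4 was last at 12.8 ± 0.677 in P95H/+ and 11.9 ± 2.62 CPM per kb in wild type, and its highest library, at 13.7, lay under the lowest of Srsf11, at 15.8, but above the lowest of Srsf10, at 12.9. The order depends on the length used: over the longest protein-coding transcript alone Srsf5 came first, at 252 CPM per kb in P95H/+ and 272 in wild type, and Srsf2 second, at 174 and 175. Srsf5 has 3988 bases of annotated exon, of which that transcript is 1568 long. By transcript length Srsf3 moved from rank 6 to rank 3 in both genotypes. Srsf1 moved from rank 3 to rank 5 in P95H/+ and to rank 6 in wild type.

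**Figure D5:**
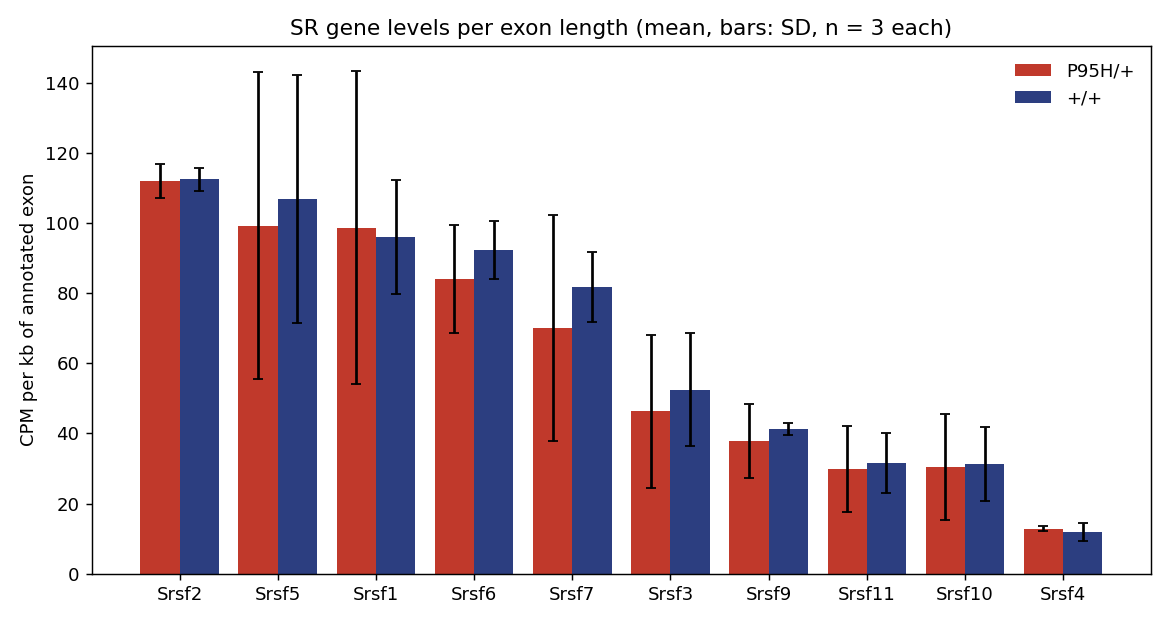
Mean CPM per kb of annotated exon for each SR gene, with P95H/+ in red to the left of wild type (+/+) in blue, ordered by the wild-type mean. Error bars are SD of 3 libraries, and they are short for Srsf2, at 4.79 and 3.31, and long for Srsf5, at 43.7 and 35.4 CPM per kb.

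Members differed in how alike their patterns over the 6 libraries were. With log2 CPM centred on each gene's mean, the root mean square difference was smallest between Srsf3 and Srsf5, at 0.08, and both Srsf10 (0.08) and Srsf11 (0.09) were also nearest to Srsf5. Srsf1 was nearest to Srsf11 (0.12) and Srsf7 to Srsf1 (0.15), and Srsf6 and Srsf9 were nearest to each other (0.13). Srsf2 and Srsf4 were both nearest to Srsf6, at 0.18 and 0.23, and the pair farthest apart was Srsf2 and Srsf10, at 0.61. Among 9670 other genes with a mean of at least 10 CPM, the patterns closest to Srsf2 were those of Ing5 (0.02), a reader of histone methylation, Ncapd3 (0.03), a condensin subunit, and Gabarap (0.03), an autophagy protein. With 6 libraries such likeness only says that these genes, too, were level: Ing5 stood at 61.0 ± 2.11 CPM in P95H/+, against 62.7 ± 2.56 CPM in wild type (SD, n = 3 each).

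Genes that work with SR proteins were set beside the family. Of 27 SR-related splicing activators, 18 had a positive and 9 a negative log2 fold change with a median of 0.13, and 0 passed an adjusted p of 0.05. Without replicate 3, 16 were positive with a median of 0.02. The smallest p in this list was that of Srrm1, a coactivator that bridges SR proteins and the spliceosome, which averaged 432 ± 17.2 CPM in P95H/+, against 346 ± 88.8 CPM in wild type, each with its SD over 3 libraries. Its log2 fold change was 0.39 (SE 0.24), and 0.16 (SE 0.09) without replicate 3. Scaf4, a partner of RNA polymerase II, had 0.34 (SE 0.23), and 0.05 (SE 0.08) without replicate 3. The list of SR protein kinases, phosphatases and import factors had 8 of 15 positive, a median of 0.03 and 0 passing. Without replicate 3 it had 7 positive and a median of -0.01, and with total counts alone 4 positive and a median of -0.05. Srpk1, the cytoplasmic SR protein kinase, averaged 284 ± 12.6 CPM in P95H/+, against 251 ± 18.6 CPM in wild type, with 0.25 (SE 0.18) as log2 fold change, and 0.18 (SE 0.08) without replicate 3. Clk3, a nuclear SR protein kinase, had -0.25 (SE 0.23), and -0.40 (SE 0.09) without replicate 3, with an adjusted p of 0.0792 in edgeR's test.

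The hnRNP proteins, which often oppose SR proteins at exons, had 17 of 27 positive, a median of 0.04 and 0 passing. This tally depended on the setting, with 23 positive and a median of 0.11 without replicate 3, and 11 positive and a median of -0.03 with total counts alone. Over all genes 53.1% were positive with a median of 0.02 with 6 libraries, where 0% passed. The all-gene values were 49.6% and -0.003 without replicate 3, and 40.4% and -0.05 with total counts alone. The log2 fold changes of Pcbp1, 0.34 (SE 0.21), and Hnrnpul1, 0.33 (SE 0.21), were 0.20 (SE 0.08) and 0.11 (SE 0.09) without replicate 3. Nonsense-mediated decay factors had 10 of 15 positive, a median of 0.09 and 0 passing, and without replicate 3 had 9 positive and a median of 0.05. The smallest p were those of Smg9, a regulator of the Smg1 kinase, at 0.41 (SE 0.36), and Smg5, which binds phosphorylated Upf1, at 0.34 (SE 0.31). Smg9 stood at 38.4, 39.9 and 85.6 CPM in P95H/+ replicates 1, 2 and 3, against 39.5, 40.3 and 51.1 CPM in wild type, and had 0.003 (SE 0.09) without replicate 3, where Smg5 had 0.21 (SE 0.09). In P95H/+ replicate 3 the median log2 difference from replicates 1 and 2 was -1.29 for the SR family, -0.997 for the hnRNP list, -0.54 for the SR-related activators, -0.30 for decay factors and -0.09 for the kinase list, against -0.10 for all tested genes. In wild-type replicate 3 these medians were -0.52, -0.77, -0.60, -0.18 and -0.18, against -0.02. The lists also differed in GC content, with a median of 43.7% for the SR family and 45.1% for the hnRNP list. It was 47% for the SR-related activators, 50.2% for decay factors and 48.2% for the kinase list, against 49.5% for all tested genes. The part of GC content in these list values was not tested. Between the replicate 3 libraries, P95H/+ minus wild type, 9 of 10 SR members were negative, where 57.2% of all genes were, and 5 of 10 lay at -0.5 or lower, where 22.6% of all genes did. Those 5 were Srsf7 at -1.10, Srsf1 at -0.71, Srsf9 at -0.68, Srsf3 at -0.67 and Srsf10 at -0.57. The median of this difference was -0.52 for the family, -0.26 for the hnRNP list, -0.21 for the kinase list, -0.01 for decay factors and 0.06 for the SR-related activators, against -0.09 for all genes.

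Markers of other cell types also varied in the replicate 3 libraries. The summed level of 10 erythroid markers was 569, 539 and 1636 CPM in P95H/+ replicates 1, 2 and 3, against 649, 870 and 1023 CPM in wild type, and that of 10 granulocyte precursor markers was 9629, 8562 and 10662 CPM, against 7416, 7936 and 11689 CPM. Both lists had all markers detected in every library, and both were highest in replicate 3 of each genotype. The 10 stem and multipotent progenitor markers summed to 1053 to 1303 CPM in P95H/+ and 1144 to 1422 CPM in wild type. B lineage markers summed to 178 to 238 CPM in P95H/+ and 124 to 201 CPM in wild type, T and NK cell markers to 180 to 237 CPM and 152 to 301 CPM, of which Nkg7 alone made 176.35 to 232.26 CPM and 137 to 297 CPM, monocyte, macrophage and dendritic cell markers to 617 to 728 CPM and 599 to 860 CPM, and stroma and endothelium markers to 126 to 161 CPM and 106 to 158 CPM, of which Pecam1 alone made 115 to 145 CPM and 101 to 146 CPM. Of 8 T and NK cell markers, Cd3e, Cd3g and Trbc2 were below 1 CPM in every library, as were Col1a1, Lepr and Cdh5 of the 8 stromal and endothelial ones. The part of these cell types in the SR gene values was not tested.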

How the data were processed

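The deposited table of raw counts per gene was made by the authors from stranded paired reads of ribosome-depleted total RNA, per the labels' protocols. The build mm10 and the tools STAR 2.5.3a, Trim Galore, Subread 1.5.1 with featureCounts, cutadapt, Picard 1.96, limma and edgeR are listed without roles or settings, per the submitters' processing notes. The CPM that the authors deposited equalled count over library total within 0.000498 for the 10 genes. All results here start from the counts, and CPM are counts over the library's whole total.

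P95H/+ was set against wild type in edgeR 4.0.16 under R 4.3.3 (TMM, filterByExpr, robust quasi-likelihood F test, two-sided, Benjamini-Hochberg over all tested genes). SE follows from the F statistic, and 95% intervals use the t distribution of the fit. Each log2 difference between single libraries uses log2 CPM with a prior count of 2. DESeq2 1.42.0, limma 3.58.1 (voom), other scalings and filters, sex, GC content (a spline with 4 degrees of freedom as an offset) and left-out libraries were tried. The fit and GC step were tested on simulated data. The genes, lists and tests were chosen with earlier results of these data known. Named by rule are all members, the 2 smallest p of each list, the genes overlapping Srsf2 and those most like it in pattern. Kit, Gm12992, Clk1, Clk4, Srpk2, Srsf12 and single marker genes were named outside it, after their values were seen. A fit with replicate number as a block took the numbers to pair the libraries, which the labels do not state. Deviations from group means correlated at 0.372, 0.35 and 0.613 for replicate numbers 1, 2 and 3. Across numbers, P95H/+ 2 with wild type 1 gave 0.463 and P95H/+ 1 with wild type 2 gave 0.386. These values thus do not show that the libraries numbered 1, or those numbered 2, belong together. Positions, exon lengths, GC content and sequences come from GENCODE M21. Counting intervals cover counting error only.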

Additional observations from a re-analysis of the deposited data

How the results depend on the processing

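Across 19 other settings 0 of 10 members passed an adjusted p of 0.05, with 0.187 as the smallest adjusted p, and the replicate block changed no member's call. The count of genes called over the whole table was 0, and 1 with the replicate block, with or without GC correction, 7 with DESeq2, 100 with voom quality weights, 144 without replicate 3 of both genotypes and 101 when total counts alone were also used there, a setting chosen after seeing the data. It was 0 to 1 when single libraries were left out.

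Small log2 fold changes turned sign in these settings, and the cause was not tested. With total counts alone Srsf2 was -0.0061 and Srsf10 -0.0428. Srsf11 was 0.0033 with RLE size factors, 0.0021 with GC correction and 0.0026 with DESeq2. With the replicate block Srsf1 was -0.001 and Srsf10 -0.0674, and Srsf10 -0.0006 with GC correction added. With sex in the model Srsf1 was -0.27 and Srsf10 -0.45, and with voom Srsf10 was -0.0585. With voom quality weights Srsf5, Srsf7, Srsf9 and Srsf11 were 0.0269, 0.0132, 0.0527 and 0.0431. Without replicate 3 of both genotypes Srsf4, Srsf5, Srsf7, Srsf9 and Srsf11 were -0.0006, 0.0022, 0.0534, 0.12 and 0.0467, and with total counts alone there Srsf4, Srsf7, Srsf9 and Srsf11 were -0.0309, 0.0224, 0.0863 and 0.0154. With single libraries left out, log2 fold changes ranged from -0.14 to 0.42 for Srsf1, -0.36 to 0.22 for Srsf3, -0.0015 to 0.31 for Srsf4, -0.30 to 0.27 for Srsf5, -0.18 to 0.0616 for Srsf6, -0.38 to 0.17 for Srsf7, -0.24 to 0.14 for Srsf9, -0.24 to 0.37 for Srsf10 and -0.24 to 0.27 for Srsf11. Srsf2 stayed between 0.03 and 0.08 there. Of the ranks per length in wild type, 4 of 10 were kept with the longest transcript as length. With single libraries left out the family median ranged from -0.23 to 0.20, highest without P95H/+ replicate 3, and the ratio of summed CPM from 0.84 to 1.14. With sex in the model the family median was -0.31 and 8 of 10 members were negative, all but Srsf2 and Srsf4. Over all genes the median was then -0.04 and 45.8% were positive. The lowest members there were Srsf3 at -0.53 (SE 0.35), Srsf7 at -0.52 (SE 0.33), Srsf10 at -0.45 (SE 0.35) and Srsf5 at -0.43 (SE 0.32). With 3 libraries a group and genotype alone in the model, the 95% intervals of Srsf3, Srsf5, Srsf7 and Srsf10 include a 2-fold lower level in P95H/+.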

Other observations

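Single kinases of SR proteins were picked out after their values were seen. Clk1 stood at 405, 432 and 166 CPM in P95H/+ replicates 1, 2 and 3, against 574, 492 and 243 CPM in wild type. Clk4 stood at 97.9, 96.1 and 27.4 CPM in P95H/+, against 125, 107 and 46.4 CPM in wild type. Clk3 stood at 41.3, 45.7 and 62.2 CPM in P95H/+, against 58.1, 59.2 and 70.3 CPM in wild type. For all 3 genes each P95H/+ library lay below the wild-type library of the same replicate number, as for 19.3% of all genes tested and for Srsf3 and Srsf6. Because these 3 genes were picked by their values, their number cannot be set against that share, and the other kinases were not tallied. Srpk1 went the other way, at 297, 282 and 272 CPM in P95H/+ replicates 1, 2 and 3, against 255, 267 and 231 CPM in wild type. Over 6 libraries the log2 fold changes were -0.32 (SE 0.43) for Clk1, -0.28 (SE 0.53) for Clk4 and -0.25 (SE 0.23) for Clk3. Without replicate 3 the log2 fold changes were -0.32 for Clk1, -0.23 for Clk4 and -0.40 for Clk3, with adjusted p of 0.145, 0.271 and 0.0792 in edgeR's quasi-likelihood test. Srpk2, by the same fit, had 0.29 with an adjusted p of 0.127, and 0.22 (SE 0.33) over 6 libraries.

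Srsf12, an SR-related gene outside the 10, stood at 0.37 to 0.62 CPM in P95H/+ and 0.3 to 0.74 CPM in wild type, far below the other family genes. Its log2 fold change was 0.21 (SE 0.44).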
